A study of Mus musculus with 10 samples.

Results

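The genes of the G1/S transition and DNA replication were examined in lymphatic endothelial cells (LEC) sorted from mouse tumours shortly after angiopoietin-2 was blocked. The set was a named list of 38 genes, each present once among the 23510 rows of the deposited gene table and each matched by its symbol. MT-ret melanoma fragments were implanted on the flank of C57BL/6N mice, and LEC, which form the wall of lymphatic vessels, were sorted from the tumours by flow cytometry. MT-ret stands for a RET oncogene under the metallothionein promoter. The 2 groups were mice injected intraperitoneally with anti-Ang2, an antibody against the Tie2 ligand angiopoietin-2, and mice injected in the same way with control IgG, all killed 12 hours later. All 10 mice carried implanted tumour, which did not arise in the skin of the host, and the labels give no age, dose or antibody clone. Each group had 5 independent replicates with 1 library each, made from 0.5 ng of RNA, so n = 5 per group, except in fits that leave libraries out. The title puts the question of how gene expression in tumour LEC responds to brief inhibition of Ang2.

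A cell commits to DNA synthesis when D-type and E-type cyclins, with their kinases, inactivate the retinoblastoma proteins and release the E2F transcription factors. The activating E2F proteins then switch on the genes that load the MCM helicase on origins, make deoxynucleotides and build the replication fork, while E2f7 and E2f8 encode repressors of the same targets. Most endothelial cells of a mature vessel are quiescent, and these transcripts are abundant mainly in cells that are entering or passing through S phase.

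Library totals ran from 38090933 to 51786044 gene counts after anti-Ang2 and from 40313230 to 83850341 after IgG. Lymphatic endothelial markers were high in all libraries, the summed level of 10 markers being 15980 to 21180 library-scaled read counts (CPM) after anti-Ang2 and 19280 to 22940 CPM after IgG. Lyve1, at 5646 and 4655 CPM on average, and Mmrn1, at 5502 and 6658 CPM, made up most of this sum. Of the 10 markers 8 had negative log2 fold changes, with a median of -0.22 over the 10. Ccl21a (379 and 883 CPM) and Tie1 (1067 and 1519 CPM) were called lower after anti-Ang2 (edgeR adjusted p = 0.00447 and 0.0140). All 12 melanoma markers had positive log2 fold changes, and their sum was 1136 to 5594 CPM after anti-Ang2 against 269 to 1870 CPM after IgG, with 1 of the 12 at 0 in at least 1 library. Results are also given from fits with this sum as a covariate or without the 3 libraries with the most of it (anti-Ang2 1, 2 and 3). The fit without those 3 rests on anti-Ang2 4 and 5 alone against all IgG libraries. Macrophage and monocyte markers (14 genes) summed to 107 to 324 CPM after anti-Ang2 and 119.5 to 263 CPM after IgG, with 5 of the 14 at 0 in at least 1 library. Markers of T and B cells (9 genes, 8 of them at 0 in at least 1 library) summed to 0.128 to 3.22 CPM after anti-Ang2 and 1.995 to 11.8 CPM after IgG. Markers of fibroblasts and pericytes (10 genes) summed to 430 to 1017 CPM after anti-Ang2 and 221 to 698 CPM after IgG. Of these 10 genes 6 had negative log2 fold changes, with a median of -0.37 over the 10. Dcn averaged 332 CPM after anti-Ang2 and 144 CPM after IgG, and Cspg4 172 and 53.2 CPM. Col1a1 went the other way, at 22.65 and 91.9 CPM, as did Col1a2, at 12.9 and 67.5 CPM. Like the melanoma sum, Cspg4 was highest in anti-Ang2 1, 2 and 3. Markers of blood endothelium (8 genes) ran from 2511 to 5200 CPM after anti-Ang2 and from 3573 to 5850 CPM after IgG. Plvap made up most of that last sum, at 2216 CPM after anti-Ang2 and 4022 CPM after IgG on average (adjusted p = 0.0541), while 5 of the 8 genes had positive log2 fold changes, with a median of 0.10 over the 8, and Cxcr4 was called higher. The part of these other cells in the results was not tested, apart from a fit with the macrophage sum as a covariate, in which 7 of the 38 genes and 347 of all tested genes were called lower (6 of the 8 calls below were kept, those of Mcm3 and Mcm5 were lost, and Mcm10 was added). Anti-Ang2 5 stood apart on the second principal component of all tested genes (102.5, the others -35.7 to 34.1) and had the lowest quality weight (0.417), followed by anti-Ang2 4 (0.606). The anti-Ang2 side of the fit without anti-Ang2 1, 2 and 3 thus consists of the libraries of lowest weight. Shifts in that fit cannot be assigned to the melanoma markers alone. Angpt2, the gene of the targeted protein, stood at 3222 ± 534 CPM after anti-Ang2 and 769 ± 279 CPM after IgG (SD; log2 fold change 2.07 ± 0.22, edgeR adjusted p = 0.00100); the antibody acts on the protein, so this transcript is no check of the labels.

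Several transcripts of G1/S and replication genes fell in LEC of anti-Ang2 mice. Of the 38 genes, 8 fell and 0 rose at an adjusted p under 0.05 (edgeR quasi-likelihood test, Benjamini-Hochberg adjustment over 16240 genes), where 2.80% of all tested genes were called lower and 1.34% higher. These were the transcription factor gene E2f2, the helicase genes Mcm3, Mcm4 and Mcm5, the nucleotide genes Tk1, Rrm2 and Tyms, and the checkpoint gene Clspn. At an unadjusted p under 0.05, 26 members were lower and 0 higher, against backgrounds of 9.10% and 9.14%. All 38 passed the low-count filter, 36 had a negative log2 fold change, and the median was -0.58, beside 0.01 over all tested genes. The CPM of the groups did not overlap in 10 members, all lower after anti-Ang2, where 3.76% of all tested genes were lower and 2.34% higher without overlap. Within bulk LEC RNA, fewer cells in S phase and less of these transcripts per cell cannot be told apart. With DESeq2 17 members were called lower, with limma-voom and quality weights 15, and with edgeR without IgG 2 or without IgG 3 it was 5 in each case. Over all tested genes the lower calls in these fits were 880, 780, 292 and 259, against 454 in the main fit. With the melanoma sum as a covariate 1 member, Tk1, was called. Without the 3 libraries of the highest melanoma sum 3 members were called, Tk1, Clspn and Prim1, the last not being among the 8. Of all tested genes 91 and 178 were called lower there. In these fits the median log2 fold change of the members was -0.82 and -0.81. Their median standard error was 0.26 in both, against 0.20 in the fit on all libraries without a covariate. None of the 8 called genes moved by over 1.5 times in log2 fold change in these fits, while of the 30 others 12 and 11 moved further from 0 by more than that and 3 moved nearer in each. The 8 were called partly for the size of their log2 fold changes in these data. A value near 0 passes 1.5 times by a small move, as Gins1 did from 0.00048 to 0.14 with the covariate. The contrast is therefore no measure of how the calls depend on the melanoma markers.

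**Figure D1:**
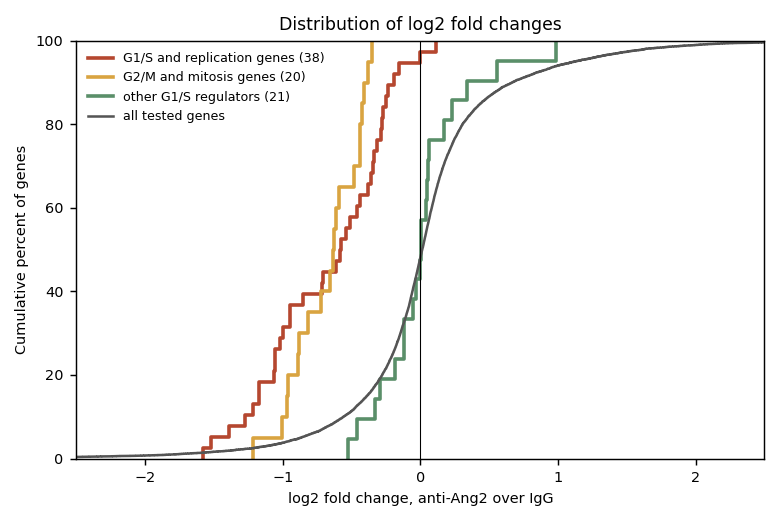
Cumulative percent of genes (vertical axis) against log2 fold change of anti-Ang2 over IgG (horizontal axis, edgeR) for the 38 G1/S and replication genes, 20 G2/M and mitosis genes, 21 tested G1/S regulators outside the set and all 16240 tested genes. The curve of the 38 genes lies left of that of all genes, with medians of -0.58 and 0.01; values beyond 2.5 in either direction are not drawn.

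Libraries differed in how high or low the members stood. Anti-Ang2 5 held the lowest CPM of 21 of the 38 members, and the other anti-Ang2 libraries that of 1 to 6 each. IgG 2 held the highest CPM of 19 members and IgG 3 that of 12, while anti-Ang2 1, 2 and 5 and IgG 1 held none. The median deviation of the members from their mean log2 CPM was -0.64 in anti-Ang2 5 and -0.28 to -0.099 in the other anti-Ang2 libraries, against 0.044 in IgG 1 and 0.19 to 0.57 in the other IgG libraries. On this measure IgG 1 was the IgG library nearest to the anti-Ang2 group. Leaving out anti-Ang2 5 gave 9 members called lower and a median of -0.51. Mcm3 lost its call in that fit, while Ccne2 and Prim1 were added.

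**Figure D2:**
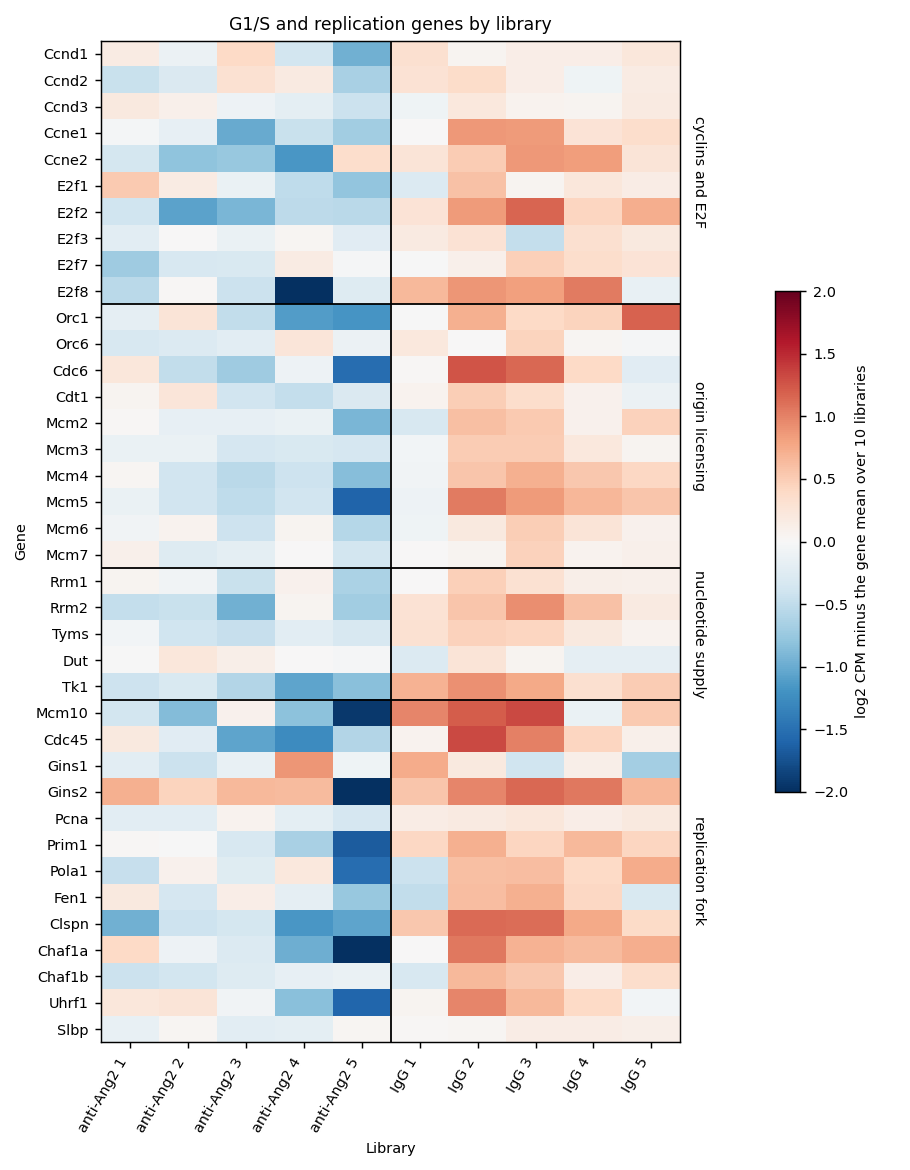
Log2 CPM of each of the 38 genes (rows, by role) minus the mean of that gene over the 10 libraries (columns, anti-Ang2 left of the line and IgG right of it). Colours end at 2 in either direction, and larger deviations take the end colour. Anti-Ang2 5 is the darkest blue column and held the lowest value of 21 genes; IgG 2 and IgG 3 hold most of the highest values.

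Promoter sequence is shown for called members whose window held an E2F word, because the activating E2F proteins regulate genes of this set. RefSeq windows of the GRCm38.p6 assembly, from 250 bases before to 50 bases after an annotated start, were matched by symbol for 32 of the 38 members (38 windows). The words searched on both strands were TTTCCCGC, TTTCGCGC, TTTGCCGC and TTTGGCGC, which can overlap one another. At least 1 word lay in 13 of the 38 member windows (34.2%), against 744 of 32851 windows of all genes (2.26%). By role, 7 of 10 windows of licensing genes, 3 of 10 of cyclin and E2F genes, 3 of 13 of fork genes and 0 of 5 of nucleotide genes held one. Among members with a window, a word was found for 4 of 7 called genes and for 9 of the 25 others. The windows of the 4 called genes follow, 5′ to 3′ on the strand of the gene, with the words in capitals.
E2f2, chr4:136172024-136172323, plus strand: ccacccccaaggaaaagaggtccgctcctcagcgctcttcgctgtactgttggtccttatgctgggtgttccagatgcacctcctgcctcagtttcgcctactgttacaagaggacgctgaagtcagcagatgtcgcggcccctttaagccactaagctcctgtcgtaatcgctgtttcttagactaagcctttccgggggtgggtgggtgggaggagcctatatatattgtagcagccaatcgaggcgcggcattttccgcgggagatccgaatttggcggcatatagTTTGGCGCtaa
Mcm3, chr1:20820263-20820562, minus strand: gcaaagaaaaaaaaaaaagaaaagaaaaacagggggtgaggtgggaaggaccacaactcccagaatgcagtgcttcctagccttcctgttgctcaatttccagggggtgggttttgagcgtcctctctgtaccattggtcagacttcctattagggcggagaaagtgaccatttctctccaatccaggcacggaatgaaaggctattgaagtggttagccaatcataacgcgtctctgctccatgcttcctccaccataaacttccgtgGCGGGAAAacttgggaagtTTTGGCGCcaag
Mcm5, chr8:75109259-75109558, plus strand: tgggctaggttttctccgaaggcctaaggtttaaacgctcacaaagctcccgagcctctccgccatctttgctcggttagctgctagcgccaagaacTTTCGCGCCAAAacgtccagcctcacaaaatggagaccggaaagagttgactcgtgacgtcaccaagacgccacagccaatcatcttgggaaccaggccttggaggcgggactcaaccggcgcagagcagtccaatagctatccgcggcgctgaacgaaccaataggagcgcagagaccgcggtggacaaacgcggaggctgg
Clspn, chr4:126556730-126557029, plus strand: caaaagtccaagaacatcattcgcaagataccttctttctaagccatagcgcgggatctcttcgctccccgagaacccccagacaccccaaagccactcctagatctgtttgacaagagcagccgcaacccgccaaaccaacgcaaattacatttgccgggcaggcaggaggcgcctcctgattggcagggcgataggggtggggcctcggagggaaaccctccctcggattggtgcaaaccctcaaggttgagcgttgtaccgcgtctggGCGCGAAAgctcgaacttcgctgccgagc
Counted from the RefSeq start, the word of E2f2 began 39 bases downstream and that of Clspn 21 bases downstream, while those of Mcm3 began 19 and 38 bases downstream. In Mcm5 a pair of overlapping words began 153 and 149 bases before the start. The GENCODE gene start printed with each gene below is not always the RefSeq start: it lies 120 bases downstream for E2f2, 60 bases downstream for Mcm5 and 45 bases upstream for Clspn, and is the same for Mcm3. Bases just after the RefSeq start were found in a GENCODE transcript of the same gene for 32 of the 38 windows. Among members not called, the windows of E2f1, Dut, Cdc6 and Mcm7 lay wholly inside the gene as GENCODE places it. Bases before the GENCODE start of these genes were therefore not searched, and E2f1 and Dut count above as holding no word. E2f2 has a second window, with 0 words. A match is a run of letters and does not show that a factor binds there.

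Cyclins and E2F factors decide entry into S phase, and of these 10 genes E2f2 alone was called. E2f2 encodes an activating E2F and lies at chr4:136172394-136196057 on the plus strand (mm10). It was measured at 13.7, 8.50, 9.47, 12.5 and 12.4 CPM in the anti-Ang2 libraries 1 to 5, against 21.6, 32.3, 40.4, 24.2 and 29.9 CPM in the IgG libraries 1 to 5. Every anti-Ang2 library lay below every IgG library, and the means were 11.3 ± 2.20 CPM after anti-Ang2 and 29.7 ± 7.38 CPM after IgG (SD), a log2 fold change of -1.39 ± 0.19 (SE; edgeR adjusted p = 0.00255). With the melanoma sum as a covariate the log2 fold change of E2f2 was -1.21 ± 0.26, adjusted p = 0.0657 (edgeR).

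The partner gene E2f1 stood at 20.9, 16.3, 13.3, 10.2 and 8.35 CPM in the anti-Ang2 libraries 1 to 5, against 12.0, 21.9, 15.1, 17.0 and 16.01 CPM in the IgG libraries 1 to 5. Those ranges overlapped, and the log2 fold change was -0.25 ± 0.25 (SE; edgeR adjusted p = 0.677). E2f1 was at -0.89 ± 0.26, adjusted p = 0.169, given the melanoma covariate and at -0.84 ± 0.24, adjusted p = 0.147, without the 3 libraries highest in melanoma markers (edgeR). E2f3, the remaining activator, was at -0.24 ± 0.18 (adjusted p = 0.548). Of the repressors, E2f8 was at -1.21 ± 0.35 (adjusted p = 0.0808) and E2f7 at -0.46 ± 0.17 (0.164). E2f8 was lowest in anti-Ang2 4, at 1.54 CPM, and highest in IgG 4, at 13.2 CPM.

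The E-type cyclins, which activate the kinase Cdk2 at the G1/S boundary, had negative log2 fold changes that missed the threshold. Ccne1 was measured at 4.59, 4.20, 2.32, 3.47 and 2.88 CPM in the anti-Ang2 libraries 1 to 5, against 4.77, 8.62, 8.58, 5.69 and 6.04 CPM in the IgG libraries 1 to 5. Its groups did not overlap, although IgG 1 came close to anti-Ang2 1. Its log2 fold change was -0.95 ± 0.26 (SE; edgeR adjusted p = 0.0696). For Ccne2 the values were 7.72, 5.59, 5.82, 4.37 and 12.5 CPM in the anti-Ang2 libraries 1 to 5, against 11.8, 13.9, 17.9, 17.6 and 11.7 CPM in the IgG libraries 1 to 5. Anti-Ang2 1 to 4 lay below all IgG libraries, and anti-Ang2 5 lay among them. The log2 fold change of Ccne2 was -1.02 ± 0.28 (SE; edgeR adjusted p = 0.0669), and without anti-Ang2 5 it was -1.31 ± 0.22, adjusted p = 0.00896. By DESeq2, Ccne1 and Ccne2 both passed (adjusted p = 0.00601 and 0.00638).

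D-type cyclins link growth signals to the kinases Cdk4 and Cdk6, and none of the 3 genes was called. Ccnd1 stood at 123, 102, 146, 85.5 and 56.7 CPM in the anti-Ang2 libraries 1 to 5, against 139, 115, 121, 121 and 129.9 CPM in the IgG libraries 1 to 5. Anti-Ang2 3 was the highest of all 10 libraries and anti-Ang2 5 the lowest, and the log2 fold change was -0.29 ± 0.20 (SE; edgeR adjusted p = 0.516). That value depended on the libraries, being -0.13 ± 0.14, adjusted p = 0.676, without anti-Ang2 5, -0.65 ± 0.29, adjusted p = 0.376, given the melanoma covariate and -0.83 ± 0.16, adjusted p = 0.0556, without the 3 libraries highest in melanoma markers (edgeR). Ccnd2 stood at 78.2, 87.1, 131, 121 and 67.9 CPM in the anti-Ang2 libraries 1 to 5, against 129.9, 136, 117, 100.4 and 119 CPM in the IgG libraries 1 to 5. The groups overlapped, with anti-Ang2 3 and 4 inside the IgG range, and the log2 fold change was -0.31 ± 0.17 (SE; edgeR adjusted p = 0.390). Ccnd3 stood at 120.4, 113, 98.7, 91.8 and 78.5 CPM in the anti-Ang2 libraries 1 to 5, against 99.0, 122, 111, 109.5 and 119 CPM in the IgG libraries 1 to 5. Its groups overlapped as well, with a log2 fold change of -0.16 ± 0.11 (SE; edgeR adjusted p = 0.532). Part of the exons of Ccnd1 (23.4% of exonic bases) and of Ccne2 (17.4%) overlaps exons of a neighbouring gene on the other strand, LTO1 and Ints8, and the library kit does not mark strand.

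**Figure D3:**
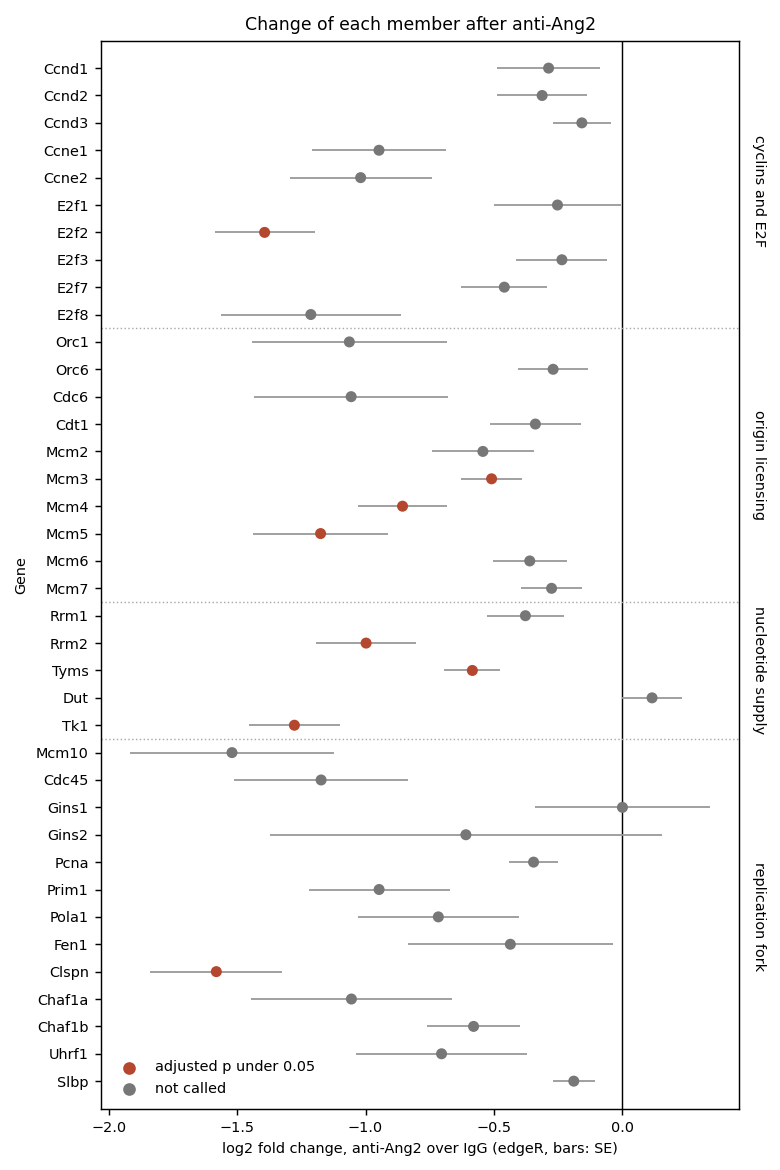
Log2 fold change of anti-Ang2 over IgG for each of the 38 genes (rows, by role), with bars of 1 standard error from edgeR. The 8 genes at an adjusted p under 0.05 are red; all lie left of 0, from -1.58 (Clspn) to -0.51 (Mcm3), and only Dut and Gins1 lie at or right of 0.

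Origin licensing places the MCM helicase on DNA in G1. Its 10 genes all had negative log2 fold changes, and 3 of the 6 subunits of the helicase ring were called. Mcm5 (chr8:75109569-75128439 on the plus strand) was measured at 34.6, 29.2, 26.6, 28.9 and 12.5 CPM in the anti-Ang2 libraries 1 to 5, against 35.5, 77.7, 68.7, 59.8 and 55.8 CPM in the IgG libraries 1 to 5. The groups did not overlap, but IgG 1 lay just above anti-Ang2 1, and anti-Ang2 5 was far below the rest. Means were 26.3 ± 8.27 CPM after anti-Ang2 and 59.5 ± 15.8 CPM after IgG (SD), and the log2 fold change of Mcm5 was -1.18 ± 0.26 (SE; edgeR adjusted p = 0.0300).

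Mcm4 (chr16:15623897-15637400 on the minus strand) was measured at 53.3, 39.8, 35.7, 39.0 and 28.7 CPM in the anti-Ang2 libraries 1 to 5, against 49.5, 76.3, 85.3, 75.7 and 68.95 CPM in the IgG libraries 1 to 5. Here IgG 1 lay below anti-Ang2 1, and the other IgG libraries lay above the anti-Ang2 range. Mcm4 had a log2 fold change of -0.86 ± 0.17 (SE; edgeR adjusted p = 0.0190). Mcm3 (chr1:20802968-20820312 on the minus strand) was measured at 66.3, 66.1, 57.8, 58.9 and 57.7 CPM in the anti-Ang2 libraries 1 to 5, against 69.6, 104, 104, 84.5 and 75.1 CPM in the IgG libraries 1 to 5. The anti-Ang2 values were close together and all below the IgG values, which spread more widely. The log2 fold change of Mcm3 was -0.51 ± 0.12 (SE; edgeR adjusted p = 0.0379).

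The calls of E2f2, Tk1, Clspn, Rrm2 and Tyms stayed under the threshold in all 10 fits without 1 library, and those of the helicase genes in fewer. Mcm3 stayed under the threshold in 2 of the 10 fits without 1 library (without IgG 1 or IgG 5), Mcm5 in 3 (without anti-Ang2 1, anti-Ang2 5 or IgG 1) and Mcm4 in 7 (all but those without anti-Ang2 3, IgG 2 or IgG 3). Their highest adjusted p in those fits was 0.104, 0.0840 and 0.0626, while the log2 fold changes stayed within -0.58 to -0.44, -1.31 to -0.998 and -0.99 to -0.76.

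The other ring subunits are Mcm2, Mcm6 and Mcm7, none of which was called. Mcm6 had the highest level per length of the set, at 22.9 ± 4.24 FPKM after anti-Ang2 and 29.0 ± 4.27 FPKM after IgG (mean ± SD of the deposited values). It was counted at 109.5, 120.3, 85.6, 119.5 and 77.3 CPM in the anti-Ang2 libraries 1 to 5, against 108, 131, 161, 137 and 122 CPM in the IgG libraries 1 to 5. The groups overlapped, with anti-Ang2 1, 2 and 4 above IgG 1, and the log2 fold change of Mcm6 was -0.36 ± 0.14 (SE; edgeR adjusted p = 0.208). For Mcm2 it was -0.54 ± 0.20 (adjusted p = 0.168) and for Mcm7 -0.28 ± 0.12 (0.249). On the scale of FPKM, Mcm5 stood at 6.86 ± 2.13 FPKM after anti-Ang2 and 15.3 ± 3.97 FPKM after IgG.

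The loaders are the origin recognition subunits Orc1 and Orc6 and the factors Cdc6 and Cdt1, which bring the helicase to the origin. Orc1 was near the bottom of the set, with 28 to 96 counts in the anti-Ang2 libraries and 68 to 229 in the IgG libraries. Its log2 fold change was -1.06 ± 0.38 (adjusted p = 0.154), and that of Cdc6 was -1.06 ± 0.38 (0.156). Cdt1 was at -0.34 ± 0.18 (adjusted p = 0.354) and Orc6 at -0.27 ± 0.14 (0.337). Cdc6 ranged from 1.84 to 6.26 CPM after anti-Ang2 and from 4.58 to 12.8 CPM after IgG, so that its groups overlapped.

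Nucleotide supply gave 3 of the 8 calls among 5 genes. Thymidine kinase (Tk1, chr11:117815526-117826092 on the minus strand), which salvages thymidine, was measured at 8.86, 9.56, 7.84, 5.68 and 6.59 CPM in the anti-Ang2 libraries 1 to 5, against 19.3, 22.3, 20.1, 14.8 and 16.9 CPM in the IgG libraries 1 to 5. All anti-Ang2 libraries lay well below all IgG libraries. Means were 7.71 ± 1.59 CPM after anti-Ang2 and 18.7 ± 2.88 CPM after IgG (SD), and the log2 fold change of Tk1 was -1.28 ± 0.18 (SE; edgeR adjusted p = 0.00255). Tk1 was the only member called in all 20 alternative fits, with a log2 fold change of -1.44 ± 0.25, adjusted p = 0.0364 when the melanoma sum was a covariate (edgeR).

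Rrm2 (chr12:24708241-24714146 on the plus strand) encodes the small subunit of ribonucleotide reductase, which makes deoxynucleotides from ribonucleotides. It was measured at 19.0, 19.4, 13.7, 27.5 and 16.3 CPM in the anti-Ang2 libraries 1 to 5, against 32.5, 38.8, 50.4, 39.6 and 30.2 CPM in the IgG libraries 1 to 5. The highest anti-Ang2 library, anti-Ang2 4, stayed below the lowest IgG library, IgG 5. Rrm2 had a log2 fold change of -0.998 ± 0.19 (SE; edgeR adjusted p = 0.0151). Rrm1, the large subunit of the same enzyme, was at -0.38 ± 0.15 (adjusted p = 0.204), with 69.3 ± 14.8 CPM after anti-Ang2 and 90.1 ± 12.3 CPM after IgG (SD).

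Thymidylate synthase (Tyms, chr5:30058202-30073617 on the minus strand), the enzyme of new thymidylate synthesis, was measured at 36.8, 28.7, 27.5, 32.8 and 30.4 CPM in the anti-Ang2 libraries 1 to 5, against 46.8, 52.3, 51.5, 43.7 and 39.8 CPM in the IgG libraries 1 to 5. The groups did not overlap, and the log2 fold change was -0.58 ± 0.11 (SE; edgeR adjusted p = 0.0121). GENCODE also lists a pseudogene, Tyms-ps, so that reads of Tyms could be split by the counting. Both Rrm2 and Tyms stayed under the threshold in all 10 fits without 1 library, but given the melanoma covariate they were at -0.86 ± 0.26, adjusted p = 0.190, and -0.59 ± 0.16, adjusted p = 0.133 (edgeR). Dut, the dUTPase that keeps uracil out of DNA, was measured at 28.2, 33.1, 30.5, 28.3 and 27.7 CPM in the anti-Ang2 libraries 1 to 5, against 23.4, 33.6, 29.3, 25.0 and 25.0 CPM in the IgG libraries 1 to 5. It had a positive log2 fold change of 0.12 ± 0.12 (SE; edgeR adjusted p = 0.683), and its groups overlapped.

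**Figure D4:**
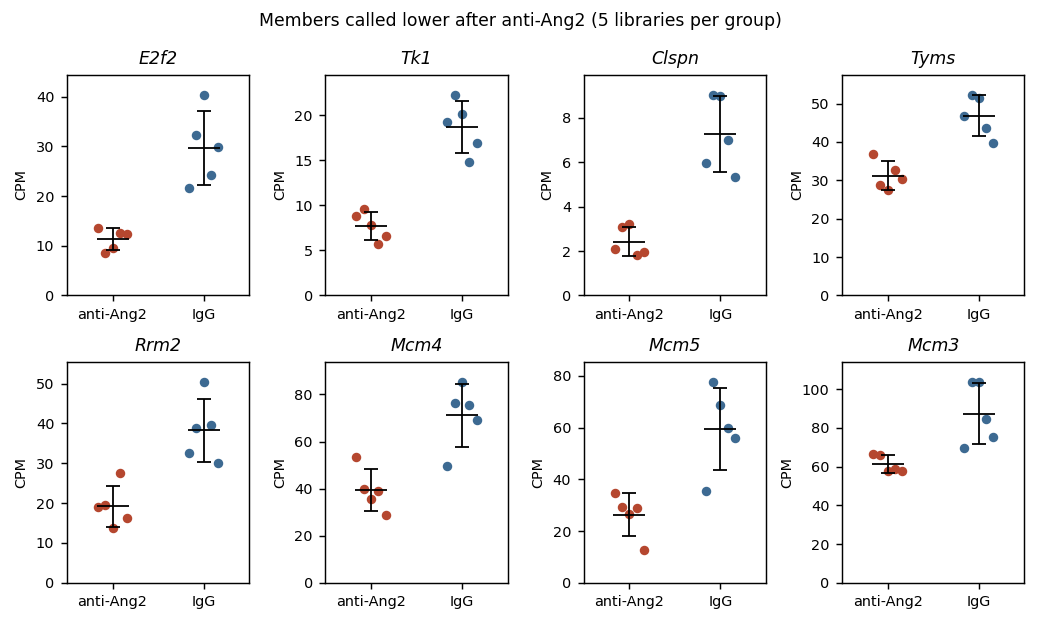
CPM per library (points) of the 8 genes called lower after anti-Ang2, in order of adjusted p, with the mean and SD of 5 libraries (bars); each panel has its own axis from 0. The groups overlap only in Mcm4, where IgG 1 (49.5 CPM) lies below anti-Ang2 1 (53.3 CPM).

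At the replication fork 1 of 13 genes was called, and 12 had negative log2 fold changes. Claspin (Clspn, chr4:126556935-126593903 on the plus strand), which mediates the replication checkpoint, was measured at 2.09, 3.08, 3.21, 1.81 and 1.97 CPM in the anti-Ang2 libraries 1 to 5, against 5.99, 9.05, 8.99, 6.99 and 5.35 CPM in the IgG libraries 1 to 5. The highest anti-Ang2 value was below the lowest IgG value, and the log2 fold change, -1.58 ± 0.26 (SE; edgeR adjusted p = 0.00567), was the most negative of the set. Clspn was at -1.81 ± 0.36, adjusted p = 0.0509, in the fit with the melanoma covariate (edgeR).

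Helicase activation needs Mcm10, Cdc45 and the GINS complex. Mcm10 was measured at 2.49, 1.75, 3.42, 1.81 and 0.817 CPM in the anti-Ang2 libraries 1 to 5, against 6.40, 7.49, 8.09, 2.93 and 4.63 CPM in the IgG libraries 1 to 5. Of the IgG libraries only IgG 4 lay within the anti-Ang2 range. The log2 fold change of Mcm10 was -1.52 ± 0.40 (SE; edgeR adjusted p = 0.0568), and without IgG 4 it was -1.69 ± 0.38, adjusted p = 0.0410. Cdc45 was at -1.17 ± 0.34 (adjusted p = 0.0827). Gins1 averaged 3.97 ± 1.69 CPM after anti-Ang2 and 3.97 ± 1.55 CPM after IgG (SD), with a log2 fold change of 0.00 ± 0.34 (adjusted p = 0.999) whose sign changed in 7 of 20 alternative fits. Gins2 had 0 counts in anti-Ang2 5 and 310 to 403 in the other anti-Ang2 libraries, against 287 to 776 in the IgG libraries. Its log2 fold change was -0.61 ± 0.76 (adjusted p = 0.760), and without anti-Ang2 5 it was -0.29 ± 0.17, adjusted p = 0.411 (edgeR). Exons of Gse1 on the other strand overlap 67.3% of its exonic bases.

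Pcna, the sliding clamp of the polymerases, had the highest level per length of the fork genes, at 9.98 ± 1.07 FPKM after anti-Ang2 and 12.5 ± 0.257 FPKM after IgG. It was counted at 22.2, 22.4, 27.1, 22.6 and 20.5 CPM in the anti-Ang2 libraries 1 to 5, against 28.6, 29.2, 30.2, 28.3 and 29.5 CPM in the IgG libraries 1 to 5. The groups did not overlap, and the IgG values lay within a narrow band. Pcna had a log2 fold change of -0.35 ± 0.09 (SE; edgeR adjusted p = 0.0682). GENCODE lists the pseudogenes Pcna-ps1 and Pcna-ps2, which could take part of its reads. For the primase subunit Prim1 the groups did not overlap either, with 6.80 ± 2.63 CPM after anti-Ang2 and 13.1 ± 1.32 CPM after IgG (SD) and a log2 fold change of -0.95 ± 0.27 (SE; edgeR adjusted p = 0.0829). Prim1 was called without anti-Ang2 5, at -0.75 ± 0.18, adjusted p = 0.0385 (edgeR). It was also called without the 3 libraries highest in melanoma markers, at -1.62 ± 0.30, adjusted p = 0.0479 (edgeR). Given the melanoma covariate it was at -1.59 ± 0.33, adjusted p = 0.0628 (edgeR). The catalytic polymerase alpha subunit Pola1 was at -0.72 ± 0.31 (adjusted p = 0.251).

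The flap endonuclease Fen1 had only 18 to 48 counts in the anti-Ang2 libraries and 23 to 104 in the IgG libraries, with a log2 fold change of -0.44 ± 0.40 (adjusted p = 0.645). Exons of Tmem258 and Gm10143 on the other strand overlap 84.2% of its exonic bases, and how reads in such overlaps were counted is not given in the sources used here. Genes that rebuild chromatin behind the fork include the histone chaperone subunits Chaf1a and Chaf1b, the methylation maintenance factor Uhrf1 and Slbp, which binds histone mRNA. Chaf1b was at -0.58 ± 0.18 (adjusted p = 0.104), Chaf1a at -1.06 ± 0.39 (0.172), Uhrf1 at -0.70 ± 0.33 (0.293) and Slbp at -0.19 ± 0.08 (0.244). Given the melanoma covariate Chaf1a was at -2.05 ± 0.50, adjusted p = 0.0991, and Uhrf1 at -1.47 ± 0.42, adjusted p = 0.159, and without the 3 libraries Chaf1a was at -2.13 ± 0.41, adjusted p = 0.0530, and Uhrf1 at -1.62 ± 0.34, adjusted p = 0.0680 (edgeR). Chaf1a shares 52.5% of its exonic bases with Ubxn6 on the other strand. Of the 8 called genes, Tk1 shares 1.60% of its exonic bases with another gene and the other 7 share none.

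Levels per length spanned a wide range. On the FPKM scale Mcm6 and Ccnd1 headed the order, Ccnd1 at 22.7 ± 7.42 FPKM after anti-Ang2 and 27.4 ± 2.28 FPKM after IgG, and these neighbours did not differ beyond their spread. Mcm3 followed at 17.0 ± 0.957 FPKM after anti-Ang2 and 23.9 ± 4.26 FPKM after IgG. The nucleotide gene with the highest level was Dut, at 12.8 ± 0.541 FPKM after anti-Ang2 and 11.6 ± 1.71 FPKM after IgG. Called genes stood both high, as Mcm3, and low, as Clspn at 0.351 ± 0.0858 FPKM after anti-Ang2 and 1.04 ± 0.243 FPKM after IgG. The lowest places were held by Mcm10, at 0.278 ± 0.131 FPKM after anti-Ang2 and 0.789 ± 0.283 FPKM after IgG, and by Fen1, at 0.310 ± 0.0833 FPKM after anti-Ang2 and 0.414 ± 0.151 FPKM after IgG, whose spreads overlapped.

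**Figure D5:**
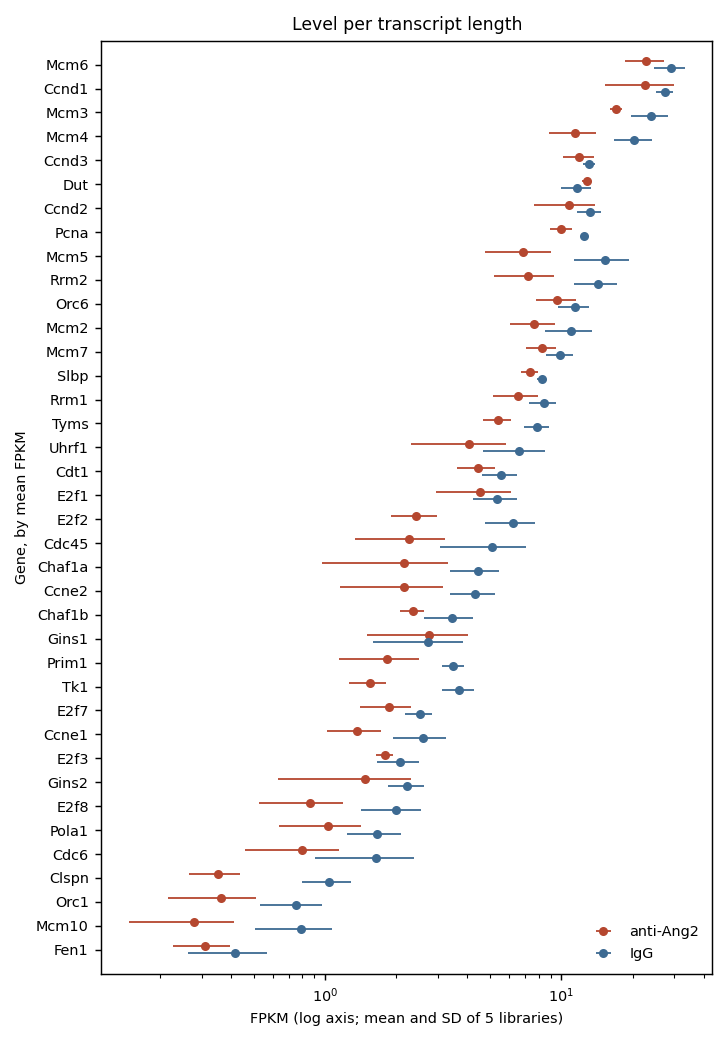
Deposited FPKM (log axis; mean and SD of 5 libraries) of the 38 genes after anti-Ang2 (red, upper) and IgG (blue, lower), ordered by the mean over all libraries. The order runs from Mcm6 (22.9 and 29.0 FPKM) to Fen1 (0.310 and 0.414 FPKM).

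Regulators of the transition outside the set, 21 tested of 22 listed, had a median log2 fold change of 0.0028, and 9 of them were negative. None of these 21 was called lower by edgeR (3 at an unadjusted p under 0.05) and 1 was called higher. The 3 were Cdkn2c at -0.53 ± 0.14, Cdc25a at -0.46 ± 0.13 and Skp2 at -0.33 ± 0.12 (SE, edgeR adjusted p = 0.0671, 0.0843 and 0.162). The gene that rose was Cdkn2b, which encodes an inhibitor of Cdk4 and Cdk6, at 15.1 ± 5.46 CPM after anti-Ang2 and 7.59 ± 1.24 CPM after IgG (SD), with a log2 fold change of 0.99 ± 0.24 (SE; edgeR adjusted p = 0.0447). Its groups overlapped, and the call was lost in 9 of the 10 fits without 1 library (adjusted p up to 0.117), all but that without anti-Ang2 5. Cdkn2b was at 0.56 ± 0.30, adjusted p = 0.471, given the melanoma covariate and at 0.65 ± 0.26, adjusted p = 0.265, without the 3 libraries (edgeR). The inhibitor genes Cdkn1a and Cdkn1b were at 0.04 ± 0.21 and 0.01 ± 0.12 (adjusted p = 0.947 and 0.985). Kinase genes Cdk2, Cdk4 and Cdk6 were at 0.23 ± 0.12, 0.06 ± 0.07 and -0.05 ± 0.13 (adjusted p = 0.377, 0.739 and 0.885). Myc was at 0.00 ± 0.16 (0.996); these genes were chosen after their values were seen.

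Further genes of origins and forks, 48 in all and all tested, gave 5 lower and 1 higher call (17 and 1 at an unadjusted p under 0.05), with a median log2 fold change of -0.26. Timeless, which protects stalled forks, averaged 44.3 ± 6.46 CPM after anti-Ang2 and 76.7 ± 8.40 CPM after IgG (SD), with a log2 fold change of -0.79 ± 0.12 (SE; edgeR adjusted p = 0.00312). Chtf18, a subunit of an alternative clamp loader, averaged 4.59 ± 1.41 CPM after anti-Ang2 and 12.3 ± 3.55 CPM after IgG (SD), with a log2 fold change of -1.42 ± 0.27 (SE; edgeR adjusted p = 0.0128). The DNA ligase of lagging-strand synthesis, Lig1, was at -0.84 ± 0.18 (SE; edgeR adjusted p = 0.0233), the clamp unloader Atad5 at -1.05 ± 0.25 (SE; edgeR adjusted p = 0.0429) and Gmnn, whose product geminin inhibits Cdt1, at -0.65 ± 0.14 (SE; edgeR adjusted p = 0.0280). The polymerase epsilon subunit Pole4 rose, at 0.50 ± 0.11 (SE; edgeR adjusted p = 0.0292). Timeless and Chtf18 stayed under the threshold in all 10 fits without 1 library, Lig1 in 6, Gmnn and Pole4 in 4 and Atad5 in 1 (the last 4 all lost their calls without IgG 2 and without IgG 3). The calls that remained were those without anti-Ang2 1, 3, 4 and 5 and IgG 1 and 5 for Lig1, without anti-Ang2 4 and 5 and IgG 4 and 5 for Gmnn, without anti-Ang2 4 and 5 and IgG 1 and 4 for Pole4, and without anti-Ang2 4 for Atad5. Given the melanoma covariate all 6 passed the threshold no longer (adjusted p 0.0743 for Timeless to 0.386 for Pole4). Their log2 fold changes were then -0.70 for Timeless, -1.23 for Chtf18, -0.74 for Lig1, -0.90 for Atad5, -0.51 for Gmnn and 0.30 for Pole4, the last being the only one of the 6 to move by over 1.5 times.

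Of 20 further genes of nucleotide synthesis, 0 fell and 0 rose by edgeR (at an unadjusted p under 0.05, 0 and 1), with a median of 0.0020. All 20 genes of G2/M and mitosis had negative log2 fold changes, with a median of -0.63, and 2 were called lower (11 at an unadjusted p under 0.05). Kif23, a kinesin of cytokinesis, averaged 8.98 ± 3.40 CPM after anti-Ang2 and 20.9 ± 2.17 CPM after IgG (SD), with a log2 fold change of -1.22 ± 0.25 (SE; edgeR adjusted p = 0.0196). Mki67, the gene of the proliferation antigen Ki-67, averaged 28.9 ± 7.33 CPM after anti-Ang2 and 53.3 ± 9.64 CPM after IgG (SD), with a log2 fold change of -0.88 ± 0.19 (SE; edgeR adjusted p = 0.0227). Kif23 lost its call without anti-Ang2 1, IgG 2 or IgG 3 (adjusted p up to 0.0577) and Mki67 without anti-Ang2 1, anti-Ang2 3, IgG 2 or IgG 3 (up to 0.0650). In the fit with the melanoma covariate neither was called, with log2 fold changes of -1.07 ± 0.34, adjusted p = 0.209, for Kif23 and -0.91 ± 0.27, adjusted p = 0.177, for Mki67 (edgeR). The summed CPM of these 20 genes was 186 to 456 CPM after anti-Ang2 and 355 to 614 CPM after IgG.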

How the data were processed

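Total RNA of sorted LEC was sequenced in 10 libraries, 5 per treatment, grouped by the treatment label. RNA was isolated with the PicoPure kit and amplified with the SMART-Seq v4 kit, per the labels' protocols. STAR, featureCounts and DESeq2 with the mm10 genome are named in the submitters' processing notes; versions and strand setting are not given in the sources used here. Per the file headers, the authors deposited raw counts per gene, which entered every test, and FPKM per library, which served only to compare levels between genes. The 10 TPM columns and the authors' own statistics were not used. Counts were tested with edgeR 4.0.16 in R 4.3.3 (quasi-likelihood F test, two-sided, TMM, filterByExpr, minimum count 10, minimum total 15; no covariate). Calls needed an adjusted p under 0.05 (Benjamini-Hochberg, 16240 genes). The SE was derived from the same F statistic; a prior count of 2 entered log2 CPM. CPM were scaled by TMM. Alternatives were DESeq2 1.42.0, limma-voom (limma 3.58.1) with quality weights, other scalings, no filter, libraries left out, a replicate block and marker sums as covariates. The tests were tried on simulated data, in which genes varied independently and no library stood apart. That trial is not used as support for the calls. Exon overlap came from GENCODE M21 (mm10), to which all 38 members matched. Full values are given for called members, for the member of each role with the highest mean FPKM, for the D-type cyclins and for E2f1, and values of other members where they stand close to a role partner; Ccne1, Ccne2, Mcm10 and Prim1 were given fuller values after these were seen. Members and lists were chosen with earlier results of these data known. Libraries within a group differed by more than sampling noise (chi-square per degree of freedom at least 58.0). Reads carry no molecular identifiers. With 1 library per mouse, the spread of mice, sorting and amplification cannot be told apart.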

Additional observations from a re-analysis of the deposited data

Results flagged for a closer look

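In 5 of the 76 combinations of a member and a group, 1 library lay apart from the other 4 by more than the critical share of the range of the group (the 95% critical value of Dixon); chance alone gives about 1 in 20. Gins2 was at 0 CPM in anti-Ang2 5, where the other anti-Ang2 libraries held 6.45 to 7.78 CPM. Gins1 was at 6.96 CPM in anti-Ang2 4, where the other anti-Ang2 libraries held 2.77 to 3.52 CPM. Mcm2 was at 31.9 CPM in anti-Ang2 5, where the other anti-Ang2 libraries held 54.2 to 61.4 CPM. Mcm7 was at 52.7 CPM in IgG 3, where the other IgG libraries held 38.4 to 41.3 CPM. E2f3 was at 6.34 CPM in IgG 3, where the other IgG libraries held 10.00 to 11.1 CPM.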

How the results depend on the processing

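Over the 20 alternatives, 0 members were called higher in any, and the median log2 fold change of the members was negative in all. The number of members called lower was 17 with DESeq2, 15 with limma-voom and quality weights, 3 with the replicate block, 1 with the melanoma covariate and 3 without the 3 libraries of highest melanoma sum, and 5 to 9 without 1 library. The median was -0.82 with the melanoma covariate and -0.81 without those 3 libraries, and -0.67 to -0.51 without 1 library. Over all tested genes the calls were 880 lower and 810 higher with DESeq2, 780 and 670 with limma-voom, 268 and 82 with the block, 91 and 24 with the melanoma covariate and 178 and 55 without the 3 libraries. Without 1 library they were 259 to 468 lower and 82 to 326 higher. The higher calls were 120 with the macrophage covariate and 531 without anti-Ang2 4 and 5. The cause of these shifts was not tested; fits with a covariate or fewer libraries leave fewer degrees of freedom. Against the sign above, the log2 fold change of E2f1 was 0.023 without anti-Ang2 4 and 5. Gins1 was at -0.0090 without a filter, -0.071 with limma-voom, -0.066 with the macrophage covariate and -0.36 without anti-Ang2 4 and 5, and at -0.30 to 0.23 without 1 library. The replicate numbers, given in the order of the titles, showed no clear pairing of the samples. Correlations of deviations over all tested genes were -0.125 to 0.113, and for 1 of 5 numbers the best-correlated library had the same number. These correlations take in every difference between libraries, so a batch shared by a number could be missed. With the block, E2f2, Tk1 and Clspn stayed called. Scaling by RLE or by library totals and dropping the filter changed no call among the 38 members. Orc1, with 28 to 229 counts in a library, was called lower with DESeq2 (-1.05 ± 0.38, adjusted p = 0.0473).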

Other observations

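The word TTTGAA, the core of the cell cycle homology region known from mitotic promoters, was searched on both strands of the same RefSeq windows. It lay in 12 of 17 windows of the G2/M list (70.6%), in 6 of 38 windows of the G1/S and replication genes (15.8%) and in 5878 of 32851 windows of all genes (17.9%). For the E2F words the count was 1 of 17 windows of the G2/M list (5.88%). These are descriptions of letters in the windows, with no test.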
